A study of Mus musculus with 2 samples.

Results

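Glutamate and GABA are the main excitatory and inhibitory transmitters of the brain, and their receptors are assembled from subunits that each have a gene of their own. The genes described here are the 45 protein-coding mouse genes, of 21887 on the assembled chromosomes, whose symbols name a subunit of an AMPA, kainate, NMDA or delta receptor, a metabotropic glutamate receptor, or a subunit of a GABA-A receptor. They were chosen by symbol alone. The mark is H3K4me3, trimethylated lysine 4 of histone H3, which in mammals lies over the starts of active and poised genes, measured by chromatin immunoprecipitation and sequencing. The data are 1 H3K4me3 library, labelled "con", and 1 library of input chromatin, sequenced without the antibody step. Both came from mouse neural progenitor cells labelled as adult, grown in N2 medium with EGF and bFGF and given no treatment. The labels give no strain or genotype and no age beyond adult, and do not say how many animals or cultures were used. With 1 library of each kind no value below has an error between cultures and no test between conditions was possible.

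Ionotropic glutamate receptors (AMPA, kainate and NMDA) are cation channels that open when glutamate binds, and AMPA receptors carry most fast excitatory transmission. Delta receptors have the same architecture but act mainly as synaptic organisers, and metabotropic receptors signal through G proteins. GABA-A receptors are pentameric chloride channels. In progenitors of the adult brain GABA can depolarise the cell and is known to restrain proliferation, and many of these genes become fully active only in neurons.

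H3K4me3 was present at 27 of the 45 receptor genes, and its fold enrichment was below the median of marked coding genes in 26 of them. A gene was counted as marked when at least 1 bp of a called peak lay over the gene or within 1 kb of it. The marked share of 60.0% (exact 95% binomial interval over genes 44.3 to 74.3) was near the 61.5% of all protein-coding genes. All 27 had a peak that overlapped the gene itself. Fold enrichment is the authors' value for each peak, a ratio over the scaled input. The strongest overlapping peak of the marked receptor genes had a median fold enrichment of 22.8 (quartiles 15.02 and 27.5), against 39.1 (quartiles 29.0 and 46.2) over the 13305 protein-coding genes with an overlapping peak. Of marked coding genes 49.5% lay below their own median of 39.1. The strongest peak reached a fold enrichment of 30 in 6 of the 27, or 22.2%, against 73.6% of marked coding genes. Tag counts were lower as well, with a median of 190 tags in the strongest peak against 331.

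**Figure D1:**
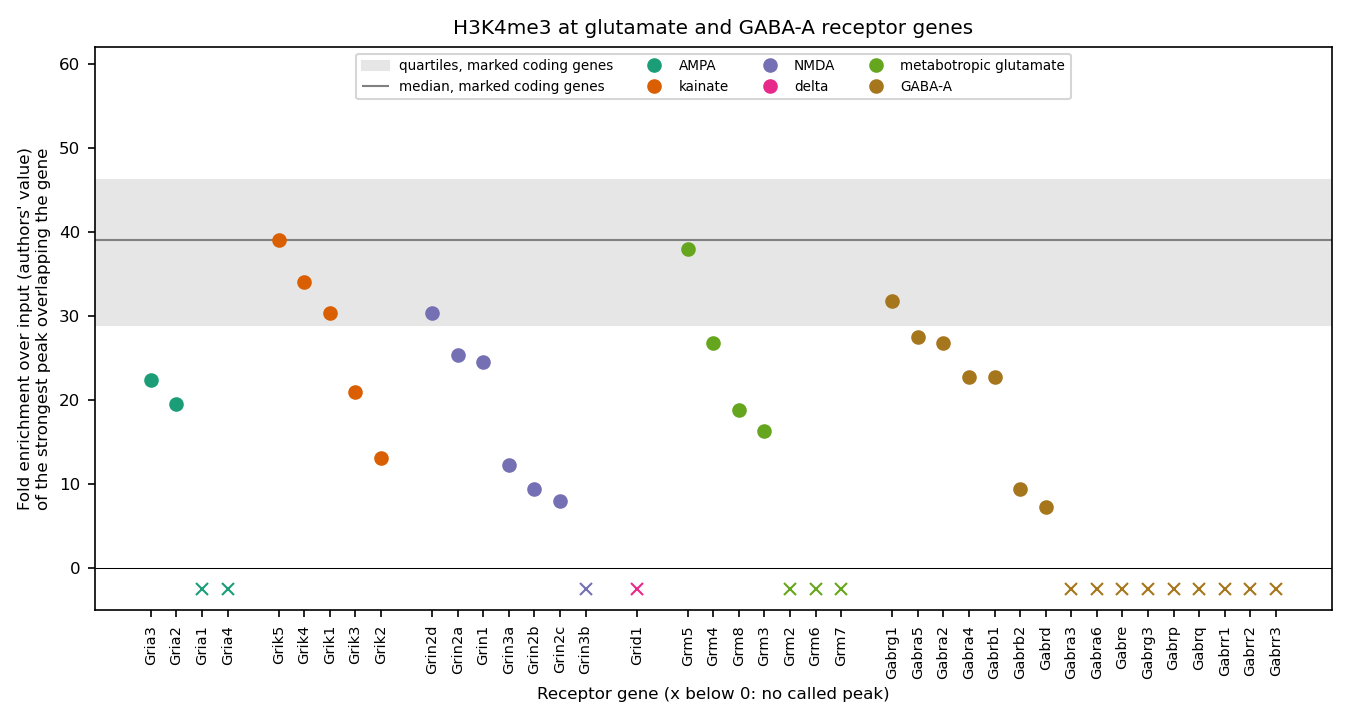
Each point is the fold enrichment over input of the strongest peak that overlaps a receptor gene, by receptor class, with crosses below 0 for genes without a called peak; the grey band and line are the quartiles and median (39.1) over all marked protein-coding genes. Grik5 lies at the median and the other marked genes shown lie below it; not every receptor gene is drawn.

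The classes differed in how many members were marked. All 5 kainate genes and 6 of 7 NMDA genes had a peak, against 2 of 4 AMPA genes, 5 of 8 metabotropic glutamate receptor genes and 8 of 19 GABA-A genes. The exact intervals over genes were wide, 47.8% to 100% for kainate and 20.3% to 66.5% for GABA-A, and overlapped. Taken by transmitter, 19 of 26 glutamate receptor genes were marked (73.1%, interval 52.2 to 88.4). Receptor genes are long, with a median length of 183 kb against 17.2 kb for coding genes, and longer coding genes more often held a peak. The classes differed in length as well. Median length was 394963 bp for kainate, 318220 bp for metabotropic, 298228 bp for AMPA, 88575 bp for GABA-A and 39312 bp for NMDA genes. The classes were not compared at equal length. Of the 21 receptor genes of 200 kb or more 15 were marked (71.4%), against 80.6% of coding genes of that length. Of the 11 receptor genes from 50 to 200 kb 8 were marked (72.7%), against 81.0%, and of the 13 shorter ones 4 (30.8%), against 55.8%. The lower fold enrichment was seen in each length range, with medians of 21.0, 26.8 and 16.3 for marked receptor genes and 35.3, 39.1 and 39.1 for marked coding genes, from the longest to the shortest range. A fold enrichment of 30 or more was reached by 3 of 15, 2 of 8 and 1 of 4 marked receptor genes in these ranges, against 62.1%, 73.4% and 74.6% of marked coding genes.

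**Figure D2:**
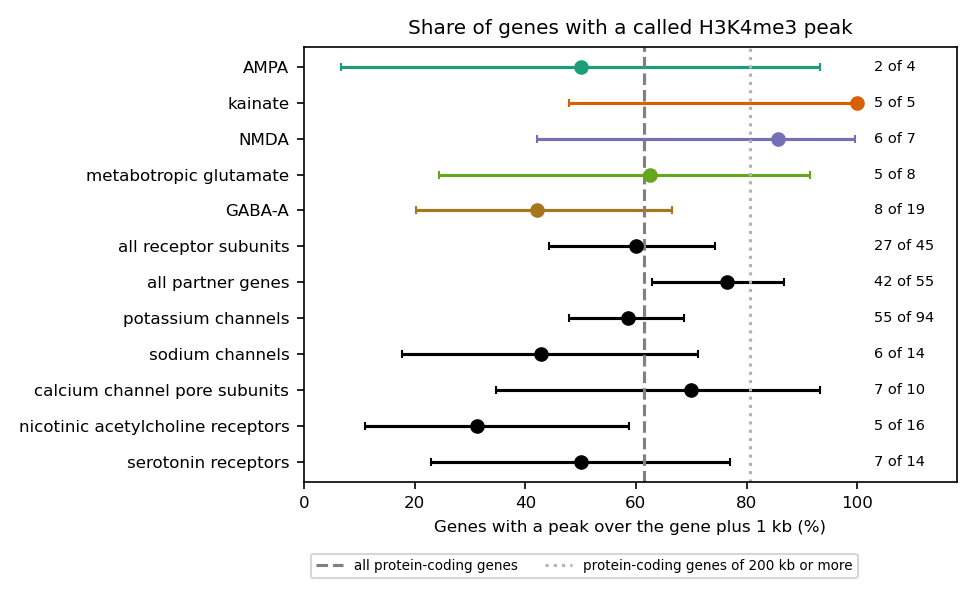
Points are the percent of genes with a peak over the gene plus 1 kb in 5 receptor classes, in the partner genes of synapses and in other channel and receptor families, with exact 95% binomial intervals over genes; the dashed line is the share over all protein-coding genes (61.5%) and the dotted line that over coding genes of 200 kb or more (80.6%). The GABA-A genes (8 of 19) lie to the left of both lines and the kainate genes (5 of 5) to the right.

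The sequences just before the gene start show what the marked and unmarked starts look like. H3K4me3 in mammals typically lies over starts rich in unmethylated CpG, so the 250 bases before the outermost start of 7 genes are shown, with each CpG in capitals. They were chosen, with their values known, for their contrast in CpG content, among genes whose window touches no other annotated gene. The first 4 belong to marked genes and the last 3 to genes without a peak. They are read 5′ to 3′ on the strand of the gene, from RefSeq (GRCm38.p6). Gabra2 is at chr5:71095850-71096099, Gabrg1 at chr5:70842618-70842867, Grm8 at chr6:28135147-28135396, Grin1 at chr2:25319188-25319437, Grm2 at chr9:106656110-106656359 and Gabra6 at chr11:42321073-42321322, all on the minus strand, and Gabrr3 at chr16:59407132-59407381 on the plus strand.
Gabra2: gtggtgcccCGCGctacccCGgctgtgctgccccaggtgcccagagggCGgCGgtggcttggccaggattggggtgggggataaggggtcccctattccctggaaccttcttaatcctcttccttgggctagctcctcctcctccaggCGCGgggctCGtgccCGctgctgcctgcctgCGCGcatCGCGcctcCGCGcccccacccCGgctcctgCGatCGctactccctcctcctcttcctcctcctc
Gabrg1: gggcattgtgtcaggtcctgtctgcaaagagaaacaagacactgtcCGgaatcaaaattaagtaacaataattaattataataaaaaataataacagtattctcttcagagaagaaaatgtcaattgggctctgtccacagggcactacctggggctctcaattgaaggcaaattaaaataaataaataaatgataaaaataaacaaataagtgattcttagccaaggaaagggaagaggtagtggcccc
Grm8: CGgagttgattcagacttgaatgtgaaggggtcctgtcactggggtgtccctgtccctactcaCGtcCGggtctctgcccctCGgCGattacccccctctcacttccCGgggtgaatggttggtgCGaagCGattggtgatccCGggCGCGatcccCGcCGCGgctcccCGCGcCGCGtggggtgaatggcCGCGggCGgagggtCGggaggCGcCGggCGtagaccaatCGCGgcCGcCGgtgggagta
Grin1: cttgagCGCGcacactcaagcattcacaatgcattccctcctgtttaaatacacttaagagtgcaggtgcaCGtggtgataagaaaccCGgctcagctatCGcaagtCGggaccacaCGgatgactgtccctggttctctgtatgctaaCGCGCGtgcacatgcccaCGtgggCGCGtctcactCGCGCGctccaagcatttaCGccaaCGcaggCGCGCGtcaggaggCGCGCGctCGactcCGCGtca
Grm2: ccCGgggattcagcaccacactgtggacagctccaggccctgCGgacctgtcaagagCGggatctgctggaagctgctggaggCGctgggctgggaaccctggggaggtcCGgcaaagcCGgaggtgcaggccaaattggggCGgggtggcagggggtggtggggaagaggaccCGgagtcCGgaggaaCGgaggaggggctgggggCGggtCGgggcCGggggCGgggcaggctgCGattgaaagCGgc
Gabra6: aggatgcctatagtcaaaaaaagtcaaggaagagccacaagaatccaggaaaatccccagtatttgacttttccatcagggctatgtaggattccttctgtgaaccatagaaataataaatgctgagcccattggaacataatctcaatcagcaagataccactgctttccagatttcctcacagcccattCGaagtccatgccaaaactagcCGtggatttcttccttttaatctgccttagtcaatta
Gabrr3: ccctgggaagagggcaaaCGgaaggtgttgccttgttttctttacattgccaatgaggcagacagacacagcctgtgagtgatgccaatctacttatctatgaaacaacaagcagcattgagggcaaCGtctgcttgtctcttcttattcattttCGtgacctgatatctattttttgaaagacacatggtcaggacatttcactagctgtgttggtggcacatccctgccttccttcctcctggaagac

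CpG content and the mark went together in most receptor genes, with clear exceptions on both sides. Over the 37 listed starts of 30 receptor genes, CpG dinucleotides were counted from 250 bases before to 50 bases after the start; starts of 1 gene can share a peak. The 19 starts with a peak within 1 kb had a median of 12 CpG (quartiles 10 and 26) and the 18 without one a median of 6.5 (quartiles 2.25 and 14.5), and the ranges overlapped, from 3 to 50 and from 0 to 24. Of the 10 receptor starts with 4 CpG or fewer, 1 had a peak, as did 7.41% of such coding starts. Of the 4 receptor starts with 5 to 9 CpG, all of GABA-A genes, 3 had a peak, 2 of them at a peak shared by starts of Gabrb2, against 33.3% of coding starts. Of the 23 receptor starts with 10 CpG or more, 15 had a peak (65.2%, exact interval 42.7 to 83.6), where 88.5% of coding starts in that range did. The receptor starts without a peak and with the highest CpG counts were those of Gabre (24), Gabrq (23), Grm2 (22) and Gria4 (17). In the opposite direction Gabrg1 had 3 CpG at its start, 1 of them in the sequence above, and the strongest peak of the GABA-A genes. At the marked receptor starts with 20 CpG or more, 9 in number, fold enrichment had a median of 19.5, against 41.4 over all marked coding starts of that kind. Low fold enrichment was thus also found at CpG-rich receptor starts, such as that of Grin1 with 33 CpG and a fold enrichment of 9.40.

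**Figure D3:**
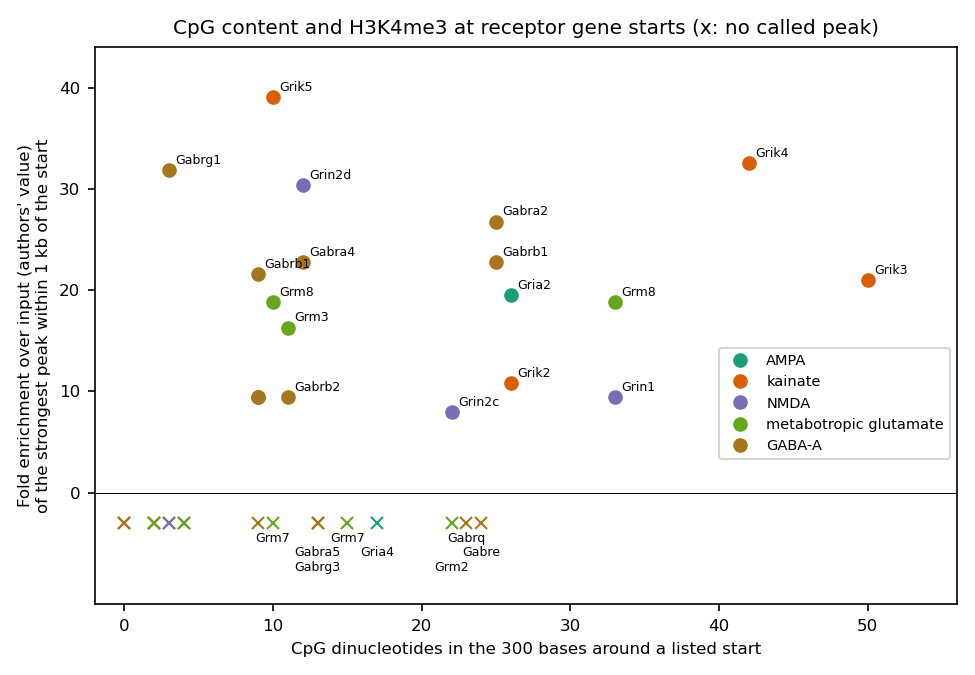
The number of CpG dinucleotides from 250 bases before to 50 bases after each listed receptor gene start (x axis) is plotted against the fold enrichment of the strongest peak within 1 kb of that start (y axis), coloured by receptor class, with crosses below 0 for starts without a called peak; genes with several listed starts appear more than once. Gabrg1 stands out at 3 CpG with 31.8, and Gabre, Gabrq and Grm2 at 22 to 24 CpG have no peak.

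The same windows were searched on both strands for short motifs, as a description of sequence only. RE1, the element bound by the neuronal gene repressor REST, has a left part TTCAGCACC and a right part GGACAGC. The left part was found in 0.414% of coding starts and at 1 receptor gene, Grm2, and the right part in 6.88% of coding starts and at Grm2 and Gria2. In Grm2 both lay on the same strand, 7 bases apart and starting 242 bases before the start. Both parts on 1 strand, at any distance, were found in 10 of 21263 coding starts. As the search set no distance between the parts, it does not show that Grm2 holds a full RE1, and REST binding was not measured. The GC box GGGCGG was in 17 of 37 receptor starts and 46.2% of coding starts, and TATAAA in 4 of 37 and 12.6%.

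Kainate receptors, which sit on both sides of synapses and modulate transmission, were the class with every gene marked. Grik5 and Grik4 encode the high-affinity subunits. Grik5 had the highest fold enrichment of any peak overlapping one of the 45 genes, with 338 tags (exact Poisson 95% interval 303 to 376, which covers counting error only, as all such intervals here do) and a fold enrichment of 39.1 over 2403 bp at its listed start (mm10 chr7:25071411-25073813). A second peak of 434 tags lay beside Grik5, within 1 kb of its end, and within 1 kb of Zfp574, so it cannot be assigned to Grik5. Grik4 had 315 tags at its start with a fold enrichment of 32.6 and a peak of 156 tags and 34.0 inside the gene, 46.6 kb from that start. Grik1, Grik2 and Grik3 encode the low-affinity subunits that can form channels by themselves. Grik1 had 305 tags with a fold enrichment of 30.4 at its higher-coordinate end, and Grik3 had 274 tags with 21.0 at its start. Grik2 stood lowest in the class, with 43 tags (interval 31.1 to 57.9) and 10.9 at its start and 88 tags with 13.1 at 5.62 kb from it, although its start has 26 CpG. The 5 kainate genes each had 2 or more peaks counted, in Grik5 only through the peak beside the gene. This was true of 10 of the 45 receptor genes, against 14.4% of all coding genes, and thus of 10 of the 27 marked ones, against 23.4% of marked coding genes, most of which are shorter.

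NMDA receptors need the subunit encoded by Grin1 together with subunits of the Grin2 or Grin3 groups, and they admit calcium when glutamate binds to a depolarised cell. Grin1 had 3 peaks, and the weakest was the one at its start, with 48 tags (interval 35.4 to 63.6) and a fold enrichment of 9.40. The other 2 held 115 tags with 24.6 near the middle of the gene (chr2:25304365-25305740), 14.1 kb from the start, and 83 tags with 18.8 near its other end. The long non-coding RNA gene Grin1os and the coding gene Lrrc26 each lie over or within 1 kb of the latter peak. Among the Grin2 genes, Grin2a had 330 tags with 25.3 at 1 end (chr16:9993393-9996146) and Grin2d had 196 tags with 30.4 at its start. Grin2d also had the highest single value counted for any receptor gene, 50.1, but that peak lay wholly beside the gene and held the start of Grwd1. Grin2b, whose product dominates NMDA receptors of the embryonic brain, had 25 tags (interval 16.2 to 36.9) with 9.40, at an end where the long non-coding RNA gene Gm26653 also starts. Grin2c, a gene used mainly in the cerebellum, had 35 tags with 7.96 at its start, within 1 kb of Fdxr, and 31 tags with 7.96 at its other end. The tag intervals of Grin2b and Grin2c overlapped and lay far below those of Grin2a and Grin2d. Grin3a had 87 tags with 12.3 and Grin3b, its close relative, had no peak. Grin3b starts with 3 CpG, and its nearest peak was 5.63 kb away.

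**Figure D4:**
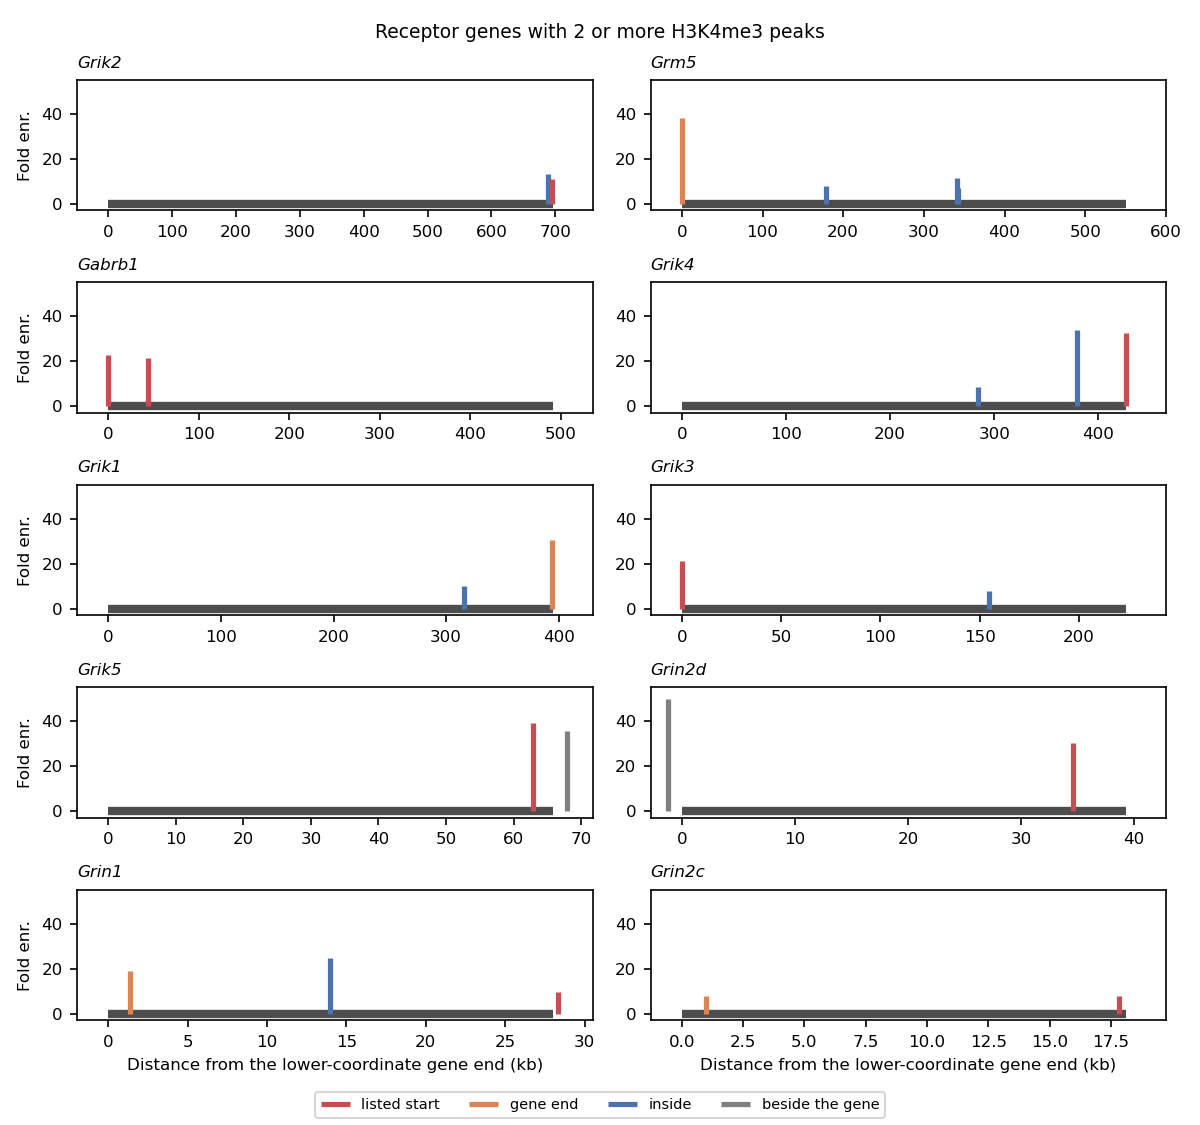
The 10 receptor genes with 2 or more peaks are drawn to scale, from the lower to the higher coordinate, in kb; each vertical line is a peak at its summit, with its fold enrichment as height and its place as colour. In Grik2, Grik4 and Grin1 a peak inside the gene is higher than the one at the listed start, and in Grik5 and Grin2d a grey line lies beside the gene.

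AMPA receptor genes were split. Gria2, whose subunit makes AMPA receptors impermeable to calcium once its RNA is edited, had 301 tags with a fold enrichment of 19.5 over 2872 bp at its start (chr3:80800251-80803122), and the X-linked Gria3 had 252 tags with 22.4 at 1 end (chrX:41400138-41402898). Their tag counts had overlapping intervals, 268 to 337 and 222 to 285. Gria1 and Gria4 had no peak over the gene, and the nearest peaks lay 187 kb and 39.9 kb away. Both marked AMPA genes had long peaks, at the 85.6 and 83.6 percentiles of length over all peaks, but lay at the 40.1 and 43.3 percentiles of fold enrichment. The delta receptor gene Grid1 had no peak, and the nearest lay 50.03 kb away.

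Metabotropic glutamate receptors fall into 3 groups by sequence and G protein. In group I, which activates phospholipase C, Grm5 carried the longest peak and the highest tag count of any receptor gene peak, 518 tags over 4817 bp with a fold enrichment of 37.97 (chr7:87584004-87588820). With peaks 1 kb or less apart joined, it was the only receptor gene region above 4330 bp, the bound of the widest 5% of such regions over coding genes. With peaks up to 3 kb apart joined, the start peak of Grik5 and the peak beside that gene formed a wider region of 7261 bp. Grm5 had 3 further peaks deep inside the gene, with 59, 50 and 24 tags and fold enrichments of 7.96, 11.6 and 6.90. In group II, which lowers cyclic AMP, Grm3, a gene also used by astrocytes, had 162 tags with 16.3 at its start, and Grm2 had none. In group III, also coupled to inhibition of cyclic AMP, Grm4 had 251 tags with 26.8 and Grm8 had 154 tags with 18.8 at the outermost of its 3 listed starts. Grm6, the receptor of retinal ON bipolar cells, and Grm7 had no peak. Grm7 was the farthest of all 45 genes from any peak, with 706 kb to the nearest.

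The GABA-A genes lie mostly in clusters that arose by duplication, and the number of marked genes varied between clusters. On chromosome 5 all 4 genes were marked and on chromosome X none of 3. The chromosome 5 genes are all longer than 50 kb. Of coding genes from 50 to 200 kb 81.0% were marked, of those of 200 kb or more 80.6%, and of X-linked ones 43.3%. In the chromosome 5 cluster (70751047 to 72149572) Gabrg1 had 251 tags with a fold enrichment of 31.8, Gabra2 had 209 tags with 26.8, and Gabra4 and Gabrb1 shared a peak of 158 tags with 22.8. Gabra4 and Gabrb1 are read in opposite directions from starts at which they overlap by 388 bp, so this peak (chr5:71657259-71658752) lies over both starts and cannot be given to either. Gabrb1 had a peak at its second listed start that no other coding gene shared, with 200 tags and 21.6 (chr5:71699932-71701904). That peak also lies over or within 1 kb of the long non-coding RNA gene Gm38562. The tag intervals of these 4 peaks over genes ran from 134 to 284, and neighbours in order of tags overlapped. A further peak of the cluster lay between genes, with 36 tags and a fold enrichment of 8.28.

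Elsewhere the values varied from gene to gene. On chromosome 7 a peak of 216 tags (interval 188 to 247) with a fold enrichment of 27.5 lay over 1 end of Gabra5, but it cannot be given to Gabra5 alone. The only listed start of Gabra5 lies 81.3 kb from the summit of that peak and had none. Gabrg3, 671 kb long, had no peak although its start has 13 CpG. On chromosome 11 Gabrb2, the gene of a beta subunit of many receptors of the mature brain, had a peak with 49 tags (interval 36.3 to 64.8) and 9.40. That peak also covers the start of the long non-coding RNA gene Gm34591, and the cerebellar granule cell gene Gabra6 had no peak. On chromosome X Gabra3, Gabre and Gabrq had none. For comparison 43.3% of X-linked coding genes were marked, and Gria3 was the 1 marked gene of the 4 X-linked receptor genes.

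**Figure D5:**
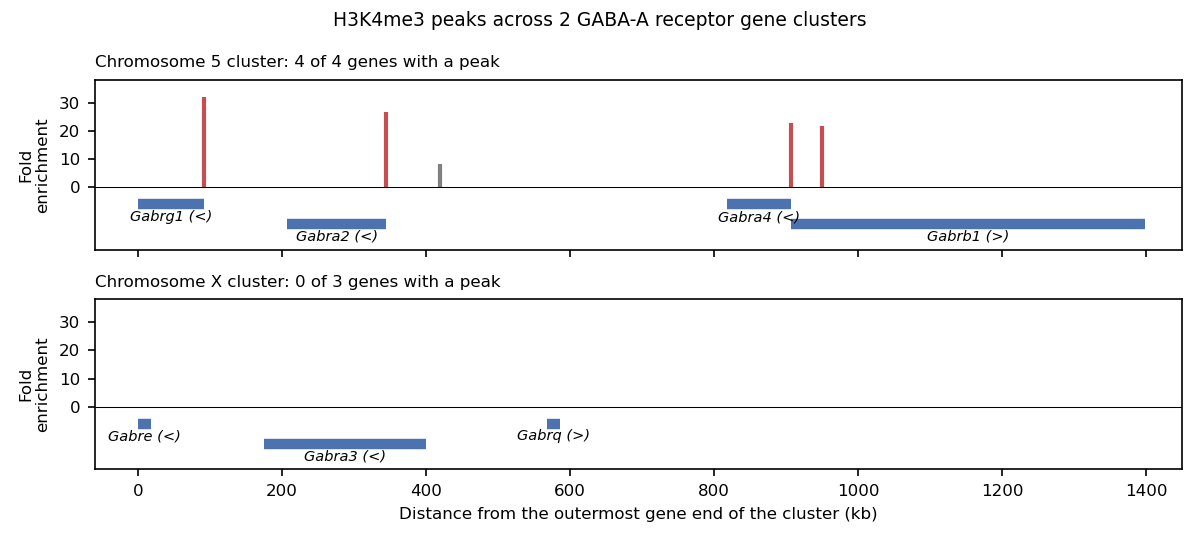
The GABA-A gene clusters of chromosomes 5 and X are drawn on a common scale in kb from the outermost gene end, with genes as blue bars, the direction of transcription by arrowheads, and each peak as a line at its summit with its fold enrichment as height. Red lines are peaks over a GABA-A gene and the grey line is a peak between genes (8.28); the chromosome X panel has no peak.

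Outside these clusters the GABA-A genes were almost unmarked. Gabrd, the gene of a subunit found mainly outside synapses, had the lowest value when each marked receptor gene was taken by its strongest peak, with 20 tags (interval 12.2 to 30.9), a fold enrichment of 7.23 and a -log10 p of 5.09, just past the cutoff of 1e-05 used by the peak caller. That peak also lies over or within 1 kb of Cfap74. Gabrp, and Gabrr1, Gabrr2 and Gabrr3, which encode the rho subunits known from the retina, had none. Of these genes and Gabrd, all but Gabrr3 are under 50 kb long, a range in which 55.8% of coding genes were marked.

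The members nearest to the cutoff show how weak the least marked genes were. Just inside it lay Gabrd and then Grin2b and Grin2c, with a -log10 p of 7.29 and 11.7. Just outside the 1 kb flank lay Grin3b at 5.63 kb from the nearest peak, Grm6 at 8.51 kb and Gabrr3 at 9.65 kb. Of the 18 unmarked genes 7 had no peak within 100 kb.

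In marked genes with a listed start, a peak lay at the start in all but Gabra5. Start positions came from the RefSeq promoter table for 30 receptor genes, and gene ends were used for the other 15. A peak lay within 1 kb of a listed start in 15 of the 30, against 58.0% of coding genes with a listed start. By gene length this was 3 of 12 under 50 kb, 5 of 7 from 50 to 200 kb and 7 of 11 at 200 kb or more, against 53.1%, 76.0% and 72.3% of coding genes. With either gene end in place of the start it was 25 of 45, against 56.3%. Summits were 71 to 1377 bp from the nearest listed start, with a median of 250.5 bp, and lay downstream of it in 7 of 16 combinations of gene and peak. The joined regions at these starts had a median width of 1869 bp, with a range of 843 to 2872 bp (up to 7261 bp with peaks 3 kb or less apart joined), against a median of 2251 bp (quartiles 1759 and 2918) for coding genes. A further 10 combinations were peaks inside a gene, away from its ends and listed starts. Their fold enrichments ran from 6.90 to 34.0 with a median of 10.9, and 8 of the 10 were below 15. The gene tables used here give starts and ends but no exons, so these peaks were not assigned to exons or introns.

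The partners of the receptors at the synapse were also examined. Of 55 partner genes 42 were marked (76.4%, interval 63.0 to 86.8, which overlaps that of the receptor genes), against 61.5% of all coding genes. Partner genes had a median length of 70063 bp, and 81.0% of coding genes from 50 to 200 kb were marked. The strongest peaks of the marked partner genes had a median fold enrichment of 34.8, against 39.1 for marked coding genes. The scaffolds of excitatory synapses were marked in 13 of 14, and only Grip2 had no peak. The 13 had a median fold enrichment of 36.2, below the 39.1 of marked coding genes. Highest were Homer3 (47.7) and Shank1 (47.0, with another coding gene within 1 kb), whose products anchor metabotropic receptors and the postsynaptic density. The inhibitory synapse partners were marked in 5 of 5, led by Gabarap (52.8), a GABA-A trafficking and autophagy protein, and Nlgn2 (52.7), an adhesion protein of inhibitory synapses, both with another coding gene within 1 kb of the peak. Gphn, which encodes the GABA-A anchor gephyrin, had 48.5. Of the AMPA and kainate auxiliary subunits 12 of 14 were marked, led by Cacng7 (46.2, with another coding gene within 1 kb) and Cacng4 (39.8), and Cacng3 and Shisa6 had no peak. Transmitter synthesis and transport genes were marked in 10 of 15, with Glul (55.7), the glutamine synthetase of astrocytes and radial glia, highest and Gad2 and Slc32a1, which GABAergic neurons use to make and load GABA, without a peak. Gabbr1 had 37.6 and Gabbr2 no peak, so the GABA-B receptor was marked in 1 of its 2 genes. Of the 5 glycine receptor genes Glrb alone had a peak (36.2), and Glra1 and Glra2 had none.

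Other channel and receptor families were compared in the same way. Potassium channel genes were marked in 55 of 94 (58.5%), nicotinic acetylcholine receptor genes in 5 of 16, serotonin receptor genes in 7 of 14, sodium channel genes in 6 of 14 and calcium channel pore genes in 7 of 10. The share over all coding genes was 61.5%. Median gene length ran from 16752 bp in the nicotinic to 135198 bp in the calcium channel family. Of coding genes under 50 kb 55.8% were marked, and of those from 50 to 200 kb 81.0%. Over these families together the strongest overlapping peak had a median fold enrichment of 21.3 and lay below the coding median in 70 of 78 genes (89.7%), beside 96.3% of the marked receptor genes. Low fold enrichment was thus not particular to glutamate and GABA-A receptors. The calcium channel pore genes had the highest median of these families, 38.3.

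The labelled cell type was checked on marker genes. All 10 neural stem and progenitor markers, among them Sox2, Nes and Pax6, had a peak with a fold enrichment of 30 or more. For comparison 61.5% of all coding genes were marked, and 73.6% of marked coding genes reached 30. Of 8 neuronal markers 5 had a peak, with a median fold enrichment of 17.4 (13.0 to 38.3), and Dcx, Rbfox3 and Stmn2 had none. Peaks were found at 1 of 5 astrocyte, 4 of 7 oligodendrocyte lineage, 1 of 5 microglia and 2 of 5 endothelial and mural markers. Some of these peaks were as strong as those of the stem and progenitor markers. Of the 4 marked oligodendrocyte lineage genes 2 reached 30, Olig2 (43.9) and Pdgfra (39.1), and the marked astrocyte gene had 38.6. No marked microglia, endothelial or mural gene reached 30. In a bulk library, fewer cells with the mark and less of the mark per cell cannot be told apart, and the part of neurons or other cells in the receptor gene peaks was not tested.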

How the data were processed

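The H3K4me3 and input libraries of mouse neural progenitor cells were placed on mm10, per the submitters' processing notes, with an aligner not given in the sources used here. Peaks were called with MACS 1.4.2 on the single H3K4me3 library with the input as control, at a p cutoff of 1e-05 and at most 1 tag per position, per the file headers. The submitters' processing notes name MACS2 2.1.0. After filtering, 18156769 H3K4me3 tags and 17831241 input tags were left, per the file headers. In the deposited file the tag counts are not normalized, the score is 10 times -log10 p, fold enrichment is a ratio over the scaled input, and the false discovery rate is a percent of at most 0.32. Keeping 1 tag per position limits the counts of dense peaks, and lack of a call at this depth does not show that the mark was absent.

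Peaks were joined here to RefSeq genes of GRCm38.p6, the assembly mm10 names, and to the starts of the RefSeq promoter table, with Python 3.11.15, pandas 2.3.3, numpy 2.4.6 and scipy 1.17.1. The join was tested on simulated data with planted peaks. Widths used peaks 1 kb or less apart joined. Receptor genes are named by symbol, and some members and partner genes are not reported here; of each partner list, the 2 members with the highest fold enrichment and the first 2 without a peak, beside Gphn, chosen after its values were seen. Members and lists were chosen with earlier results of these data known. Intervals are exact and cover counting error only, since amplified reads carry no molecular identifiers and are not independent molecules.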

Additional observations from a re-analysis of the deposited data

How the results depend on the processing

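With 1 library there was no replicate to leave out. No paired analysis was possible because each group has 1 sample. The 27 marked receptor genes stayed 27 with the gene alone, with 5 kb flanks, when the summit had to lie in the region and with a false discovery rate of at most 1%. The count was 25 with only peaks near gene ends and 25 with a -log10 p of at least 10 (without Grin2b and Gabrd). It was 23 with a fold enrichment of at least 10 (Grin2c and Gabrb2 also lost) and 23 with only peaks over 1 coding gene. With only listed starts, known for fewer genes, 15 of 30 receptor genes were marked, against 58.0% of coding genes with a listed start. By class these were 1 of 2 AMPA, 4 of 4 kainate, 3 of 4 NMDA, 2 of 5 metabotropic and 5 of 15 GABA-A genes. By the same rule 27 of 42 partner genes and 53 of 109 genes of the other families were marked. No delta gene has a listed start, so no value could be had there. With peaks near gene ends only, 1 of 4 AMPA genes was marked. Shared peaks mattered most for GABA-A genes. With only peaks over 1 coding gene, 4 of 19 GABA-A genes, and 4 of the 14 in clusters of 3 or more, were marked. With only peaks over no other gene of any kind, an alternative chosen after seeing the data, these were 2 and 2, partner genes 27 of 55 and all receptor genes 20. Leaving out peaks that hold a listed start of another gene, also chosen after seeing the data, gave 24. The share of all coding genes moved as well, so that receptor genes lay below it by some rules and above it by others: 51.1% against 59.2% with a fold enrichment of at least 10, 51.1% against 46.4% with only peaks over 1 coding gene, and 44.4% against 38.4% with only peaks over no other gene. The median width at starts was 1869 bp under each joining rule, but the widest went from 2872 to 7261 bp with peaks 3 kb or less apart joined. Depth limits the weak end of the list: Gabrd and Grin2b, with 20 and 25 tags, are close to what this library could call.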
